A study of Mus musculus with 10 samples.

Results

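The oligodendrocyte lineage genes described here are the 9 features named Olig1, Olig2, Nkx2-2, Cspg4, Gpr17, Mbp, Cnp, Mog and Mag, chosen by symbol from the 23230 features of a mouse RNA-seq expression matrix, and all 9 were found in it. The matrix holds 10 libraries in 3 groups. AstroEGFR* (n = 3) are cortical astrocytes of C57BL/6 pups at postnatal day 5 that lack Ink4a/Arf and carry a retrovirus for EGFR*, the constitutively active human EGFR variant III, and were grown with serum. PT (n = 4) are glioma propagating cells, cultured from tumours that such astrocytes formed in the brain of CD1 Nude mice and kept in serum-free medium with EGF and FGF2, so PT and AstroEGFR* differ in medium as well as in the tumour step, and the effects of both cannot be told apart. AstroEGFR* Zfp423 (n = 3) are the same astrocytes with a vector for Zfp423, a zinc finger transcription factor that works with SMAD proteins in BMP signalling. All 3 groups share the Ink4a/Arf deletion and EGFR*. Batch 1 gave AstroEGFR*1, PT1, PT4 and AstroEGFR*1 Zfp423, and batches 2 and 3 gave 1 library of each group. The labels give the PT libraries a number and no batch, so their batches were taken from the study. The within-batch values of PT4 and the fits of PT with the batch as a block depend on this assignment. Each library is 1 culture below passage 10, so n counts cultures, and p-values measure the spread among them. Whether a batch pooled several pups is not given in the sources used here.

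Oligodendrocytes make the myelin of the central nervous system. Their precursors arise from neural progenitors under sonic hedgehog and FGF signals, while BMP signals favour astrocytes. Olig2 and Olig1, basic helix-loop-helix factors, and Nkx2-2, a homeodomain factor, set the lineage; Cspg4 encodes NG2, a proteoglycan on the surface of precursors and also of pericytes; Gpr17 encodes a receptor of precursors committed to differentiation; Cnp encodes an enzyme of early and mature oligodendrocytes; Mbp, Mog and Mag encode myelin proteins of mature cells. Glioma cells often express the precursor genes.

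Most results below turn on the regulators. The 250 bases before the annotated starts are shown for Olig2 and Nkx2-2 so that the region near which a factor such as Zfp423 or a helix-loop-helix protein could act is visible. The sequences are from RefSeq, assembly GRCm38.p6, at chr16:91225300-91225549 on the + strand for Olig2 and chr2:147186403-147186652 on the - strand for Nkx2-2, read 5′ to 3′ along the gene. Capitals mark matches to CANNTG, the E-box read by helix-loop-helix proteins, to GCACCC, an element of the sites that Zfp423 binds, or to TATAAA, each searched on both strands.

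Olig2: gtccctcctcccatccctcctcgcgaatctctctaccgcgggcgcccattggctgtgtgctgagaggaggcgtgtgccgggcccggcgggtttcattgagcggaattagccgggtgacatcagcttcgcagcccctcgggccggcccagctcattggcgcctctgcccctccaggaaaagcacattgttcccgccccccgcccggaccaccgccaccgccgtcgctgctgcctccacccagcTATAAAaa

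Nkx2-2: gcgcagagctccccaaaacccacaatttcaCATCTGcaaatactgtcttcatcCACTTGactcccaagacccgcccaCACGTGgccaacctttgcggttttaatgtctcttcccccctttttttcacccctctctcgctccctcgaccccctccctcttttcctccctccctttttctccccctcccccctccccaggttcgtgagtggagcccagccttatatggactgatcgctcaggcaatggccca

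The Olig2 window held 1 TATAAA, beginning 8 bases before the start, and no match to the other motifs. The Nkx2-2 window held 3 E-boxes and neither GCACCC nor TATAAA. The farthest E-box, CATCTG, began 220 bases before the start. The middle one was CACTTG at 197 bases, and the nearest was the palindrome CACGTG at 173 bases. Among 32851 RefSeq windows of the same 250 bases, 66.2% held CANNTG, 13.3% GCACCC and 12.4% TATAAA. Windows were found for 6 of the 9 genes. In the GENCODE annotation of GRCm38, Olig1 and Olig2 lie on the same strand of chromosome 16 with 0 protein-coding genes between them, Cnp overlaps Dnajc7, Gpr17 overlaps Lims2, and Nkx2-2 overlaps antisense genes, each on the other strand. Olig1, Mbp and Mog overlap a non-coding RNA or pseudogene on the other strand, and Olig2, Cspg4 and Mag overlap no gene. Whether reads were counted by strand is not given in the sources used here, so the values of overlapping genes may contain reads of the other strand.

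Values are FPKM, fragments scaled by transcript length and by the library's mapped fragments, which may be compared between genes. No counts were used, so the depth is unknown. A relative depth taken from the commonest ratio between libraries over features at low values was 0.0727 in AstroEGFR*3 and 0.0946 in PT3, and 0.516 to 1.02 in the other libraries, with PT4 set to 1. The Zfp423 transcript was at 4.30, 3.25 and 3.48 FPKM in AstroEGFR*1, 2 and 3 and at 15.7, 9.73 and 105 FPKM with the vector, so all 3 vector cultures lay above their parent and AstroEGFR*3 Zfp423 was highest. All 10 astrocyte markers were above 0 in every library, but their summed level was 79.7 FPKM in AstroEGFR*2 Zfp423 against 432 to 3406 FPKM in the other 9. The 8 microglia markers summed to 1454 and 821 FPKM in AstroEGFR*1 Zfp423 and AstroEGFR*2 Zfp423 and to at most 10.8 elsewhere. The 7 fibroblast or meninges markers summed to 4498 and 6201 FPKM in the same 2 libraries and to 5120 in AstroEGFR*3, against 282 and 496 in AstroEGFR*1 and 2, 52.0, 4.28, 399 and 58.2 in PT1, 2, 3 and 4, and 223 in AstroEGFR*3 Zfp423. Each PT library was thus below the AstroEGFR* library of its batch in this sum. The same held for Pdgfrb, at 42.1, 27.9 and 65.7 FPKM in AstroEGFR*1, 2 and 3 and at 0.182 to 4.94 in PT. Single markers above the parent were Fbln1 and Lum in PT1, at 18.0 and 1.56 FPKM against 10.7 and 1.21 in AstroEGFR*1. The list also holds Pdgfra, a gene of precursors too, which gave 41.9 of the 58.2 FPKM in PT4 against 1.48 in AstroEGFR*1. Neuron markers summed to 21.2 to 116 FPKM and endothelial ones to 0.426 to 14.4, and pericyte markers, a list that holds Cspg4 itself, to 3.41 to 149. AstroEGFR*1 Zfp423, AstroEGFR*2 Zfp423 and AstroEGFR*3 therefore stand apart by markers of other cells, and fold changes of tested members and medians of lists are given below without them too. Astrocyte markers in AstroEGFR*3 summed to 1517 FPKM, between the 1466 and 1872 of the other parents, with Gfap at 725 FPKM, and the second lowest astrocyte sum after AstroEGFR*2 Zfp423 was that of PT3, at 432 FPKM, followed by AstroEGFR*1 Zfp423 at 803. Gapdh ranged from 0.0106 to 50.1 FPKM, so a value at or near 0 is reported as listed and not as absence of a transcript.

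Over the 10 libraries the mean level was 266 FPKM for Olig1, 96.1 for Olig2, 50.7 for Cnp, 14.97 for Cspg4, 5.43 for Nkx2-2, 1.22 for Gpr17, 0.930 for Mbp, 0.0400 for Mag and 0.0241 for Mog. These are means over groups that differ, and the order was not the same in every library. Mbp, at 5.03 FPKM, was above Olig2 and Nkx2-2 in AstroEGFR*1 Zfp423 and, at 2.37 FPKM, above Olig1, Olig2 and Nkx2-2 in AstroEGFR*2 Zfp423. By the mean, Olig1 lay at percentile 99.2 of all features and Mog at percentile 29.5. Cnp was above 1 FPKM in 10 of 10 libraries, Olig1 and Olig2 in 9, Nkx2-2 and Cspg4 in 8, Mbp in 3, Gpr17 in 1 and Mog and Mag in 0. Mag was listed at 0 in 6 libraries and Mog in 3. In bulk RNA, fewer cells of a type and less RNA per cell cannot be told apart. The ranges of neighbours in this order overlapped across libraries. Olig1 was the highest of the 9 in all AstroEGFR* and in 3 of 4 PT libraries, whereas in PT2 Olig2 (72.9 FPKM) and Olig1 (69.3 FPKM) were nearly equal.

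**Figure D1:**
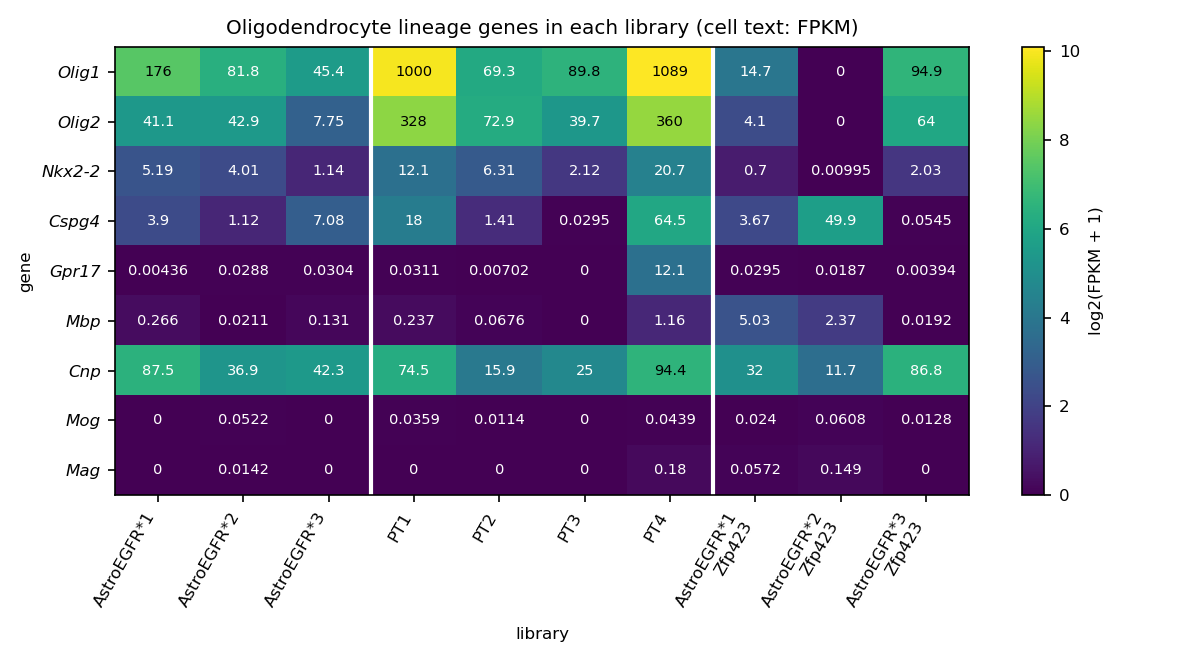
Level of the 9 oligodendrocyte lineage genes in the 10 libraries; colour is log2(FPKM + 1) and the text in each cell is FPKM, with white lines between AstroEGFR*, PT and AstroEGFR* Zfp423. Olig1 and Olig2 were highest in PT1 and PT4 and listed at 0 in AstroEGFR*2 Zfp423, Gpr17 exceeded 1 FPKM in PT4, and Mog and Mag stayed below 1 FPKM throughout.

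The comparison of PT with AstroEGFR* asks which genes differ between the glioma propagating cells and the transformed astrocytes they came from. The lineage regulators were highest in the 2 PT cultures of batch 1. With limma and Benjamini-Hochberg adjustment over the 12261 features whose average reached 1 FPKM in these 7 libraries, 0 of the 6 members tested were called at an adjusted p below 0.05, where 1.24% of all features were, and 1 of 6 (Olig2) had an unadjusted p below 0.05, against 13.6% of all features, or 5.88% in the upward direction. Gpr17 passed the filter through PT4 alone and so had to be higher in PT. Of the other 5 tested, 4 had a higher and 1 (Cnp) a lower mean in PT, while 52.1% of all features were higher and 47.9% lower. Without PT4, 3 of the 5 were higher and 2 (Cspg4 and Cnp) lower, and the median over the 5 was 0.73 on the log2 scale beside 0.024 over all features. Against the AstroEGFR* library of the same batch, 4, 0, 1 and 5 of the 6 were at least 1 higher on the log2 scale in PT1, 2, 3 and 4, where 7.85%, 13%, 8.65% and 8.99% of all features were. The 5 in PT4 include Gpr17, and Mbp, Mog and Mag were under the filter on low values. For no member did the 4 PT libraries lie wholly above or below the 3 AstroEGFR* libraries, which 6.95% of features did upward and 7.81% downward.

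Olig2 was at 41.1, 42.9 and 7.75 FPKM in AstroEGFR*1, 2 and 3, and at 328, 72.9, 39.7 and 360 FPKM in PT1, 2, 3 and 4. PT1, PT2 and PT4 were above every AstroEGFR* library and PT3 was between them. The mean of log2(FPKM + 1) was 7.10 ± 1.57 (SD, n = 4) in PT and 4.66 ± 1.33 (SD, n = 3) in AstroEGFR*, a log2 fold change of 2.44 ± 0.93 (SE) with a limma p of 0.0314 and a Benjamini-Hochberg adjusted p of 0.309. A two-sided exact permutation test over the 7 libraries gave p = 0.114; it cannot go below 0.0286. Against its own astrocyte batch, Olig2 was higher in 4 of 4 PT libraries, by 2.97 in PT1, 3.10 in PT4, 0.75 in PT2 and 2.22 in PT3 on the log2 scale. With the batch as a replicate block the log2 fold change was 2.10 ± 0.43 (SE), and the limma adjusted p of 0.0630 was still above the threshold; 475 features, 3.87% of those tested, were called in that fit. Under it 0 of 6 members were called and 2, Olig2 and Nkx2-2, had an unadjusted limma p below 0.05, as 25.4% of all features did. Without AstroEGFR*3, the library with fibroblast markers and low depth, the log2 fold change of Olig2 was 1.68 (limma adjusted p of 0.599), that of Olig1 1.26, that of Nkx2-2 0.69, that of Cspg4 1.21, that of Gpr17 0.92 and that of Cnp -0.46.

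Olig1, its neighbour on chromosome 16, was at 176, 81.8 and 45.4 FPKM in AstroEGFR*1, 2 and 3 and at 1000.3, 69.3, 89.8 and 1089 FPKM in PT1, 2, 3 and 4. PT1 and PT4 were far above the astrocytes, and PT2 and PT3 lay among them. The log2 fold change was 1.72 ± 1.11 (SE), with a limma adjusted p of 0.570 and an exact permutation p of 0.314. Within batches PT1 and PT4 were 5.69-fold and 6.19-fold above AstroEGFR*1 in FPKM, PT3 was 1.98-fold above AstroEGFR*3, and PT2 was 1.18-fold below AstroEGFR*2. The ratio of Olig1 to Olig2 was 3.05 and 3.02 in PT1 and PT4, 0.950 in PT2 and 2.26 in PT3, against 4.28, 1.91 and 5.86 in the AstroEGFR* of batches 1, 2 and 3. It was thus lower in every PT library than in the parent culture. It was also lower than in the parent in both vector cultures that have a ratio, at 3.58 in batch 1 and 1.48 in batch 3.

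Nkx2-2 was at 5.19, 4.01 and 1.14 FPKM in AstroEGFR*1, 2 and 3 and at 12.1, 6.31, 2.12 and 20.7 FPKM in PT1, 2, 3 and 4. As for Olig2, each PT library was above the AstroEGFR* library of its batch, by 1.09, 0.55, 0.54 and 1.81 in PT1, 2, 3 and 4 on the log2 scale. The groups overlapped, and the log2 fold change of 1.15 ± 0.69 (SE) had a limma adjusted p of 0.532, or 0.150 with the batch as a replicate block.

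Cspg4 was at 3.90, 1.12 and 7.08 FPKM in AstroEGFR*1, 2 and 3 and at 18.0, 1.41, 0.0295 and 64.5 FPKM in PT1, 2, 3 and 4. The differences from the parent culture had opposite signs, from 3.74 higher in PT4 to -2.97 in PT3 on the log2 scale, and the log2 fold change of 0.77 ± 1.38 (SE) had a limma adjusted p of 0.869 and was negative, -0.28, without PT4. Pdgfrb, a marker of the pericytes that also bear NG2, was at 1.91, 0.182, 4.94 and 0.849 FPKM in PT1, 2, 3 and 4, and the 6 pericyte markers, Cspg4 included, summed to 20.3, 3.41, 5.04 and 65.7 FPKM. The part of pericytes in the Cspg4 values was not tested.

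Gpr17 was at 12.1 FPKM in PT4 and between 0 and 0.0311 FPKM in the other 9 libraries. Its log2 fold change of 0.91 ± 0.94 (SE, limma adjusted p of 0.747) therefore rests on 1 library. Cnp showed no such order. It was at 87.5, 36.9 and 42.3 FPKM in AstroEGFR*1, 2 and 3 and at 74.5, 15.9, 25.0 and 94.4 FPKM in PT1, 2, 3 and 4, a log2 fold change of -0.32 ± 0.65 (SE, limma adjusted p of 0.889). The myelin genes Mbp, Mog and Mag reached 1.16, 0.0439 and 0.180 FPKM in PT4 and less in the other PT libraries, in which Mag was listed at 0.

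**Figure D2:**
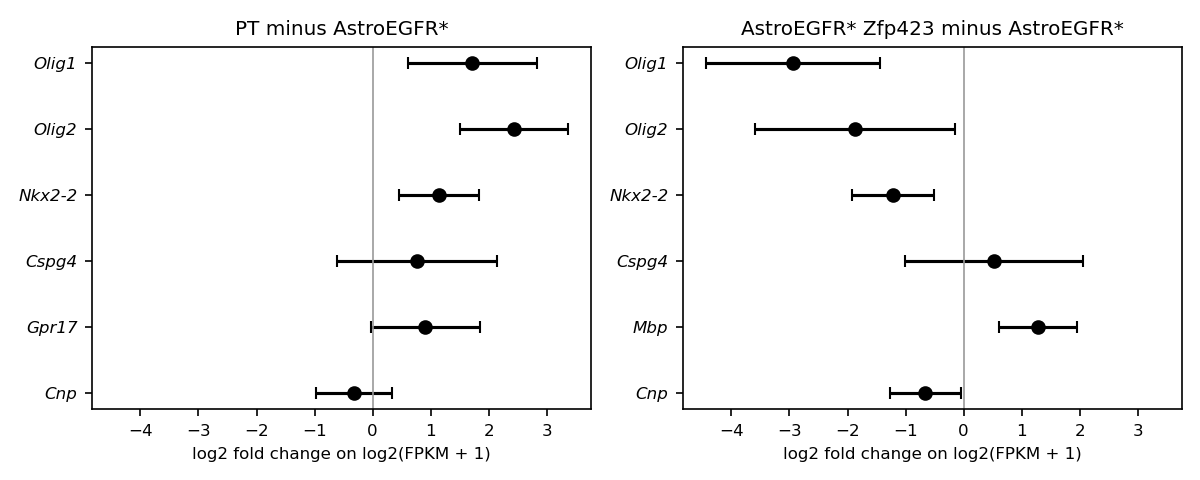
Log2 fold change on the log2(FPKM + 1) scale of the members that passed the filter, PT minus AstroEGFR* on the left and AstroEGFR* Zfp423 minus AstroEGFR* on the right; points are limma estimates and bars ± 1 SE. Olig2 at 2.44 lay farthest from 0 on the left and Olig1 at -2.94 on the right, with no member past an adjusted p of 0.05; the AstroEGFR* libraries are the same in both panels.

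PT4 had the highest levels of several precursor genes among the PT libraries. It was at least 1 above each of the other 3 on the log2 scale for 1.9% of all 12261 features, and for 1.43% of the 12157 that also averaged 1 FPKM without it. A gene that passed the filter through PT4 alone had to be high there, and 1 member (Gpr17), 2 of the 15 tested genes in a list of 20 genes of oligodendrocyte precursors and their regulators, and 3 of the 15 tested in a list of 25 genes of committed precursors and myelin had done so. Among the genes that passed without PT4, it was apart in this way for 1 of 5 members (Cspg4), 4 of 13 precursor genes (Sox10, Pdgfra, Lhfpl3 and C1ql1) and 3 of 12 committed precursor and myelin genes (Bcas1, Cldn11 and Gjc3). It was apart likewise for 3 of 10 astrocyte markers, at 30.4 FPKM for Aqp4, 29.9 for S100b and 191 for Aldoc against at most 10.7, 12.4 and 90.9 in the other PT libraries. Of 4 tested neuron markers PT4 was apart for 1, Dcx, which passed through PT4 alone. Dcx was at 8.76 FPKM there and at most 0.0801 in the others, while Nefl was lower in PT4 (6.71 FPKM) than in PT3 (34.5). Sox10, the factor that drives oligodendrocyte differentiation, was at 117 FPKM in PT4, 8.18 in PT1, 0.103 in PT2 and listed at 0 in PT3. It was listed at 0 in AstroEGFR*1 and AstroEGFR*3 and at 0.0757 FPKM in AstroEGFR*2. Pdgfra, the receptor for the PDGF that keeps precursors dividing, was at 41.9 FPKM in PT4 against 0.218 to 1.25 in the other PT libraries. Lhfpl3, C1ql1, Cacng4 and Tnr, further genes enriched in precursors, were at 73.8, 36.6, 39.7 and 13.7 FPKM in PT4, while their highest values in another PT library were 1.14, 2.16, 1.68 and 0.676 FPKM.

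In the committed precursor and myelin list, Bcas1, a mark of newly committed oligodendrocytes, was at 52.9 FPKM in PT4, 25.2 in PT2, 4.59 in PT1 and 0.253 in PT3. Gjc3, a glial connexin, was at 61.9 FPKM in PT4, 13.5 in PT1, 0.573 in PT2 and 1.12 in PT3, and listed at 0 in all 3 AstroEGFR* libraries. Omg, a gene of the oligodendrocyte membrane, was at 31.8 FPKM in PT4 and at most at 0.460 in the other PT libraries, and Ugt8a, an enzyme of myelin lipid synthesis, was at 14.7 FPKM in PT4 and at most 1.12 in the others. In each of both lists 9 of the 15 tested genes were not apart in PT4, and 3 precursor and 7 committed genes were lower there than in another PT library, by a gap of -1.37 on the log2 scale for Nkx6-2, -0.29 for Vcan, -2.67 for Evi2a and -6.14 for Trf. The late genes Mog and Mag were below 1 FPKM in PT4. PT1, from the same astrocyte batch and with the highest correlation to PT4 of all library pairs (r = 0.981 over features, as a description), shared the levels of Olig1 and Olig2 but not those of Gpr17, Pdgfra or Omg. PT4 is 1 culture, so these levels have no replicate; markers of astrocytes summed to 3406 FPKM in it and to 2774 in PT1, and those of neurons to 116 and 79.4.

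**Figure D3:**
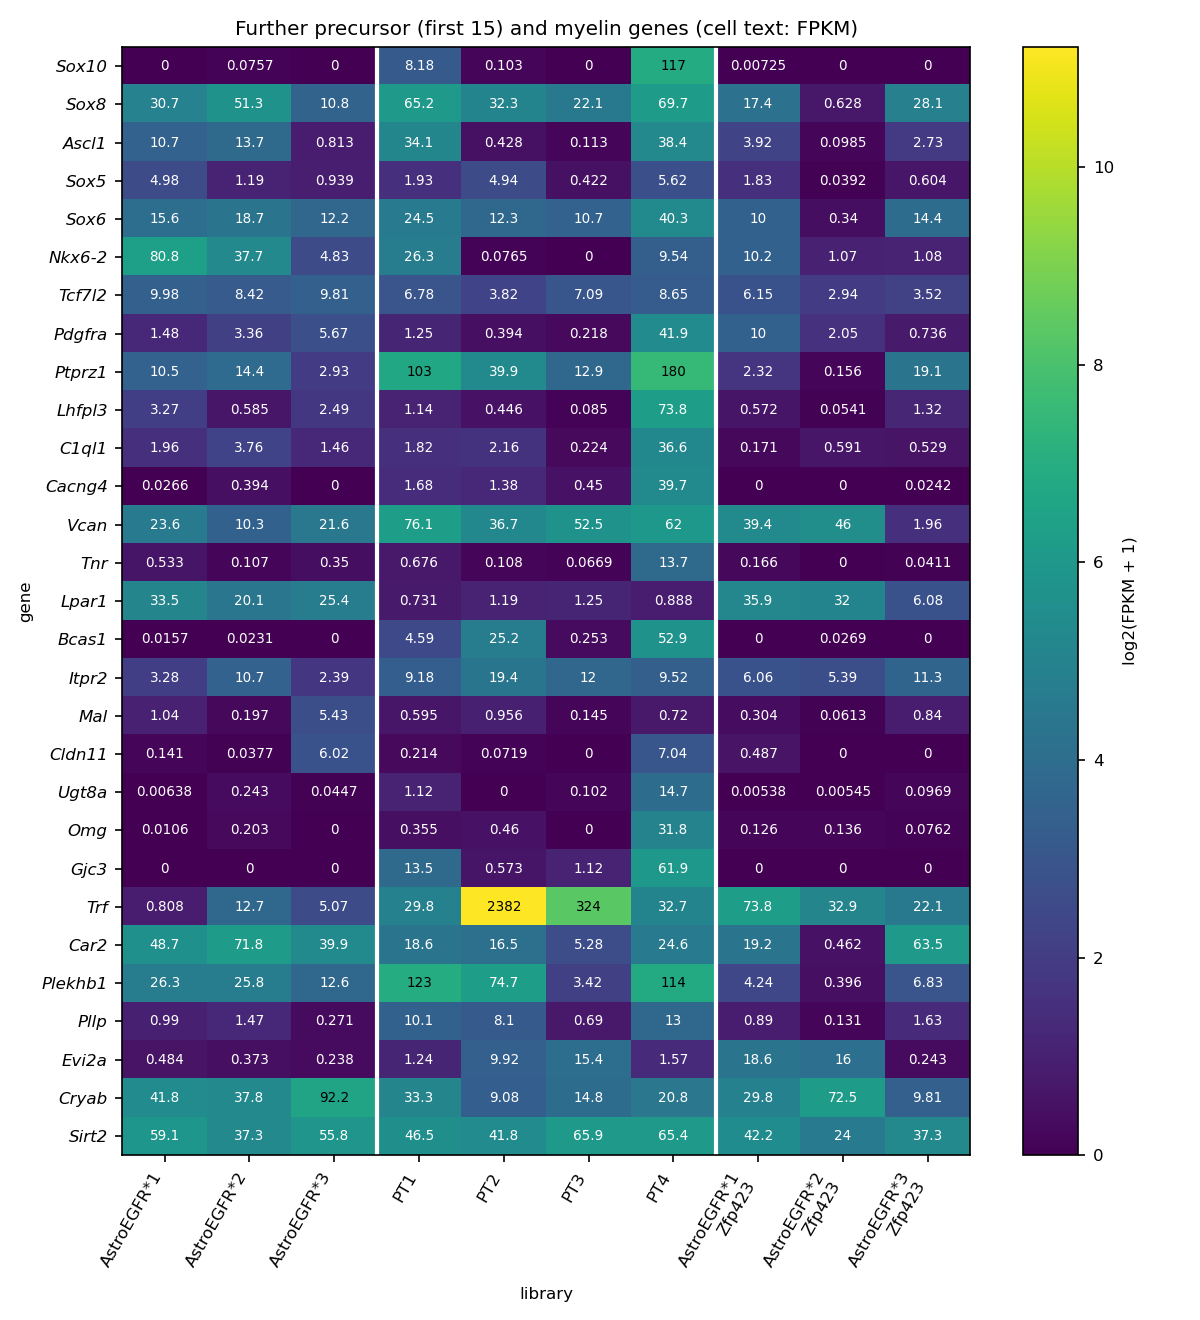
Level of the 15 precursor and regulator genes (first 15 rows of the heat map) and 14 of the 15 committed precursor and myelin genes that passed the filter, in the 10 libraries; colour is log2(FPKM + 1) and cell text is FPKM. Sox10, Lhfpl3, Cacng4 and Omg are far higher in PT4, at 31.8 to 117 FPKM, than in any other library, while Lpar1 is lower in the 4 PT libraries than in the 3 AstroEGFR* libraries.

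Over the groups, 1 of the 15 precursor genes tested was called and it was lower in PT, where 1.24% of all features were called and 0.922% were called as lower. Lpar1, a lysophosphatidic acid receptor, was at 33.5, 20.1 and 25.4 FPKM in AstroEGFR*1, 2 and 3 and at 0.731, 1.19, 1.25 and 0.888 in PT1, 2, 3 and 4, so the groups did not overlap. It fell by 3.74 ± 0.27 (SE) on the log2 scale with a limma adjusted p of 0.00423, and with batch 3 left out the log2 fold change was -3.81 with a limma adjusted p of 0.0789, above the threshold. Of the fibroblast or meninges markers, Col1a1 and Col1a2 were likewise lower in every PT than in every AstroEGFR* library. For Col3a1, Dcn, Lum, Fbln1 and Pdgfra the groups overlapped. Col1a2, a collagen gene of fibroblasts, was at 119, 343 and 1750 FPKM in AstroEGFR*1, 2 and 3 and at 0.161, 0.00354, 94.9 and 0.0114 in PT1, 2, 3 and 4, and the part of such cells in the Lpar1 values was not tested. Ptprz1, a receptor phosphatase of precursors and astrocytes, was at 10.5, 14.4 and 2.93 FPKM in AstroEGFR* against 103, 39.9, 12.9 and 180 in PT, a log2 fold change of 2.69 (limma p of 0.0176, adjusted p of 0.243). Nkx6-2, a homeodomain factor of the lineage, had a log2 fold change of -2.66 and Sox10 of 2.52, with limma adjusted p of 0.464 and 0.551. The list's median log2 fold change was 0.47, beside 0.027 over all features, and it was -0.56 over 13 genes without PT4 and 0.15 without AstroEGFR*3. With the batch as a replicate block Vcan, a proteoglycan of precursors and other cells, was called too and rose by 1.496 ± 0.17 (SE, limma adjusted p of 0.0225). With the block and without PT4, 1 of 13 precursor genes was called, Lpar1 (log2 fold change of -3.71, limma adjusted p of 0.0475), and Vcan was not, while 0.254% of all features were.

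Of the 15 committed precursor and myelin genes tested, 0 were called, 8 had an unadjusted limma p below 0.05, 6 of them higher in PT, beside 13.6% of all features and 5.88% as higher, and the median log2 fold change was 1.17. The 8 became 2, with 0 higher, without AstroEGFR*1, and 2, with 1 higher, without AstroEGFR*3, and the medians were 1.11 and 1.01. Trf, encoding the iron carrier transferrin that oligodendrocytes make, was at 0.808, 12.7 and 5.07 FPKM in AstroEGFR* and at 29.8, 2382, 324 and 32.7 in PT1, 2, 3 and 4. It was higher in 4 of 4 PT libraries than in their parents and highest in PT2 and PT3, the PT libraries with less Olig1, and its log2 fold change of 4.98 had a limma adjusted p of 0.208. In the fit with the replicate block Trf rose by 5.62 ± 0.60 (SE, limma adjusted p of 0.0180) and Car2, a carbonic anhydrase of oligodendrocytes and other glia, fell by 1.89 ± 0.32 (SE, limma adjusted p of 0.0454). With the block and without PT4, 0 of 12 genes of this list were called. Bcas1 and Evi2a had log2 fold changes of 3.30 and 2.06, with limma adjusted p of 0.282 and 0.287, and no fold is given for Gjc3, listed at 0 in AstroEGFR*. Over the list 11 of 15 genes had a higher mean in PT, as 52.1% of all features had.

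Among the signals that act on specification of the lineage, most tested genes had a lower mean in PT. Of a list of 26, which holds ligands, receptors and targets of the hedgehog, BMP, FGF and PDGF pathways, the Notch targets Hes1 and Hes5 and the receptor component Lingo1, 23 were tested, 17 had a lower mean in PT, as 47.9% of all features had, and the median log2 fold change was -1.18, or -1.27 without AstroEGFR*3. Of these, 2 were called, both lower, where 0.922% of all features were called as lower, and 12 were lower at an unadjusted limma p below 0.05, against 7.69% of all features. In single cultures, 13, 13, 12 and 13 of the 23 genes were at least 1 lower on the log2 scale in PT1, 2, 3 and 4 than in the AstroEGFR* library of their batch, while 9.95%, 16.2%, 13% and 10.1% of all features were. The 4 PT libraries share 3 parent libraries and a change of medium. In sum, the fibroblast or meninges markers were also lower in each PT library than in its parent, as was Pdgfrb, both as given above. Their part in the values of the signalling genes was not tested.

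Bmp4, a ligand that favours astrocytes over oligodendrocytes, was at 10.1, 3.14 and 5.69 FPKM in AstroEGFR*1, 2 and 3 and at 0.0606, 0.0863, 0.195 and 0.364 in PT1, 2, 3 and 4. It fell by 2.53 ± 0.40 (SE) on the log2 scale with a limma adjusted p of 0.0324. The BMP targets Id3 and Id4, inhibitors of helix-loop-helix factors, were at 309 to 714 and 7.95 to 92.5 FPKM in AstroEGFR* and at 51.8 to 201 and 0.550 to 5.82 in PT, with no overlap between the groups, as for 7.81% of all features in this direction, and limma adjusted p of 0.116 for each. Other BMP genes had other orders. The ligand Bmp2 was at 0.00684 to 0.0657 FPKM in AstroEGFR* and at 1.66, 0.381, 14.2 and 1.27 in PT1, 2, 3 and 4, above every AstroEGFR* library, as 6.95% of all features were, with a log2 fold change of 1.70 and a limma adjusted p of 0.401. The ligand Bmp7 had a log2 fold change of 1.83 (limma adjusted p of 0.565) and was listed at 0 in PT3 and AstroEGFR*3, and the BMP targets Id1 and Id2 had log2 fold changes of -1.54 and -0.12 (limma adjusted p of 0.337 and 0.959). Fgfr2, an FGF receptor, was at 25.1, 24.1 and 21.7 FPKM in AstroEGFR* and at 6.41, 5.57, 2.51 and 7.11 in PT1, 2, 3 and 4, and fell by 2.01 ± 0.33 (SE) with a limma adjusted p of 0.0341. Shh, the hedgehog ligand, was at 113, 13.5 and 4.62 FPKM in AstroEGFR* and at 0.00703 to 0.919 in PT, and its target Gli1 at 3.42 to 12.4 and at 0 to 3.48 FPKM. Smo, the hedgehog signal transducer, was at 40.7 to 60.5 FPKM in AstroEGFR* and at 40.8 to 62.5 in PT, so its ranges in both groups nearly coincided. With the astrocyte batch as a replicate block, 8 of the 23 genes were called, all lower (Bmp4, Fgf2, Fgfr2, Id3, Id4, Pdgfc, Ptch1 and Shh), where 2.68% of all features were called as lower. With the block and without PT4, 0 of the 23 were called, with limma adjusted p of 0.107 for Bmp4 and 0.0825 for Fgfr2. Of the 7 fits without the block that each left out 1 library, Bmp4 kept its call in the fit without AstroEGFR*2 (limma adjusted p of 0.0360) and Fgfr2 in the fit without PT3 (0.0302). In the other fits the limma adjusted p was 0.0647 to 0.152 for Bmp4 and 0.0715 to 0.170 for Fgfr2. Over all 7, the log2 fold changes were -2.17 to -2.88 for Bmp4 and -1.74 to -2.15 for Fgfr2.

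The comparison of AstroEGFR* Zfp423 with AstroEGFR* asks what differs when Zfp423 is added, and it uses the same 3 AstroEGFR* libraries as the comparison above. In batches 1 and 2, Olig1, Olig2, Nkx2-2 and Cnp were lower with the vector, and in batch 3 they were higher. With limma, the batch as a block and Benjamini-Hochberg adjustment over 12366 features, 0 of 6 members tested were called and 0 had an unadjusted p below 0.05. Over all features 0 (0%) were called and 913 (7.38%, or 4.08% downward) had an unadjusted p below 0.05. Of the 6, 4 had a lower and 2 (Cspg4 and Mbp) a higher mean with the vector, while 48.3% of all features were lower and 51.7% higher. Mbp, at no more than 0.266 FPKM in AstroEGFR*, passed the filter through the vector cultures alone. It therefore had to be higher with the vector and is not to be read against that share. For 0 members did the groups not overlap, as they did for 5.87% of features downward and 5.68% upward. Over 3 pairs the exact permutation test cannot give a p below 0.25.

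Olig2 was at 4.10 FPKM with the vector and 41.1 without in batch 1, listed at 0 against 42.9 in batch 2, and at 64.0 against 7.75 in batch 3. It was 10.03-fold lower in batch 1 and 8.26-fold higher in batch 3. Olig1 was at 14.7 FPKM with the vector and 176 without in batch 1, listed at 0 against 81.8 in batch 2, and at 94.9 against 45.4 in batch 3, a log2 difference of -3.50 in batch 1 and a level 2.09-fold higher in batch 3. No fold is given for batch 2, in which both genes were listed at 0. The fitted log2 fold changes, -2.94 ± 1.503 (SE) for Olig1 and -1.87 ± 1.72 (SE) for Olig2, had limma adjusted p of 0.654 and 0.774. They contain the values listed at 0 and so depend on the pseudocount and are no bound, and leaving out AstroEGFR*2 Zfp423 brought them to -1.23 and -0.077. With batch 3, and so AstroEGFR*3, left out, they were -4.93 and -4.25, with limma adjusted p of 0.190 for both.

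Nkx2-2 was at 0.700, 0.00995 and 2.03 FPKM with the vector in batches 1, 2 and 3, against 5.19, 4.01 and 1.14 without, a log2 fold change of -1.22 ± 0.71 (SE, limma adjusted p of 0.674). Cnp was at 32.0, 11.7 and 86.8 FPKM against 87.5, 36.9 and 42.3, a log2 fold change of -0.66 ± 0.61 (SE, limma adjusted p of 0.774). Both thus had the order of Olig1 and Olig2, lower in batches 1 and 2 and higher in batch 3. At least 1 lower on the log2 scale were 4 of the 6 members in batch 1 and 4 in batch 2, where 7.83% and 12% of all features were, and 3 members were at least 1 higher in batch 3, where 9.7% were. Of the remaining members, 1 and 2 were at least 1 higher in batches 1 and 2 (11.2% and 12.3% of features), and 1 at least 1 lower in batch 3 (16.5%). Those higher in batches 1 and 2 include Mbp, which passed the filter through these vector cultures. A difference of at least 1 lower on the log2 scale in batches 1 and 2 was found for 3.32% of all features, and together with at least 1 higher in batch 3 for 0.582%. Olig1, Olig2 and Cnp met both, and Nkx2-2, at 0.50 higher in batch 3, met the first. With batch 3 left out, 5 of the 6 members had an unadjusted limma p below 0.05, where 14.3% of all features did, and 0 were called. The 5 include Mbp, whose direction the filter had set. In that fit the log2 fold change was -2.09 for Nkx2-2, -1.50 for Cnp, 2.26 for Cspg4 and 1.99 for Mbp.

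Cspg4 and Mbp had other orders. Cspg4 was at 3.67, 49.9 and 0.0545 FPKM with the vector in batches 1, 2 and 3 against 3.90, 1.12 and 7.08 without, and its fitted log2 fold change of 0.53 ± 1.54 (SE) turned to -0.088 with a pseudocount of 0.1 and to -1.503 without AstroEGFR*2 Zfp423. Pdgfrb was at 72.9, 89.8 and 6.07 FPKM in these libraries and at 42.1, 27.9 and 65.7 in their parents. Of the other pericyte markers, Anpep had the same order, at 4.74, 9.37 and 0 against 0.807, 0.108 and 6.64 FPKM. Rgs5 did not, at 0.103 against 0.949 FPKM in batch 2, and Kcnj8 and Abcc9 were at most at 0.119 FPKM in any of these cultures. The part of pericytes in these Cspg4 values was not tested. Mbp was at 5.03, 2.37 and 0.0192 FPKM with the vector against 0.266, 0.0211 and 0.131 without, a log2 fold change of 1.27 ± 0.67 (SE, limma adjusted p of 0.659). The 2 libraries with Mbp above 2 FPKM are those with microglia markers at 1454 and 821 FPKM; Mog and Mag, the other myelin genes, were at most at 0.0608 and 0.149 FPKM in them. The Mbp locus also makes golli transcripts, which immune cells express, and the gene-level value does not separate them; the part of microglia in the Mbp value was not tested. Gpr17 was at 0.00394 to 0.0295 FPKM with the vector.

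**Figure D4:**
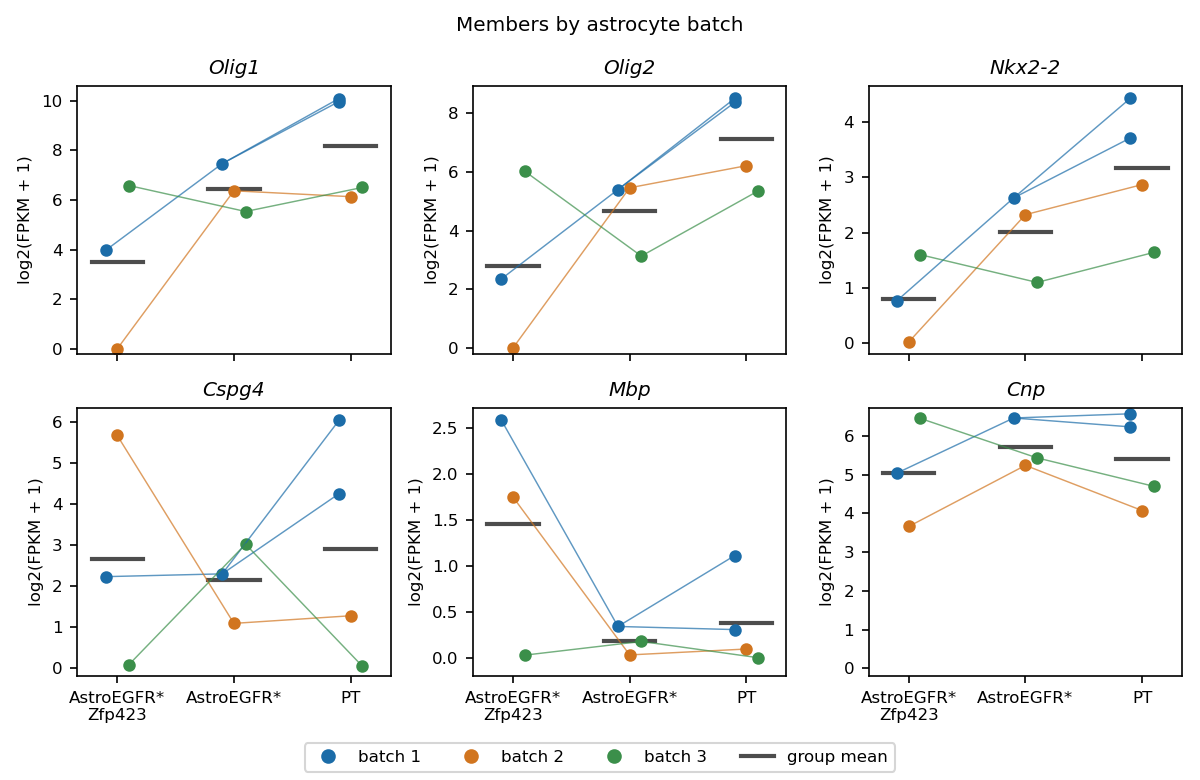
Log2(FPKM + 1) of 6 members in AstroEGFR* Zfp423, AstroEGFR* and PT; points are single libraries coloured by astrocyte batch, thin lines join each library to the AstroEGFR* culture of its batch, and bars are group means. From AstroEGFR* to PT, Olig2 and Nkx2-2 were higher in all 4 libraries; with Zfp423, Olig1, Olig2, Nkx2-2 and Cnp were lower in batches 1 and 2 and higher in batch 3.

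Markers of other cells moved with these values. The libraries with the least Olig2 were AstroEGFR*2 Zfp423 at 0, AstroEGFR*1 Zfp423 at 4.10 and AstroEGFR*3 at 7.75 FPKM, and these are the 3 with fibroblast or meninges markers at 6201, 4498 and 5120 FPKM; in the other 7, at 4.28 to 496, Olig2 was at 39.7 FPKM or more. In each of the 3 pairs, the culture with more fibroblast markers had less Olig1, Olig2 and Nkx2-2, which was the vector culture in batches 1 and 2 and the parent in batch 3. Microglia markers were high in AstroEGFR*1 Zfp423 and AstroEGFR*2 Zfp423 but summed to 2.70 FPKM in AstroEGFR*3, where 1 of 8 was listed at 0. Astrocyte markers were at 803 and 79.7 FPKM in the first 2 and at 2926 in AstroEGFR*3 Zfp423, against 1466, 1872 and 1517 in the parents. The part of these cells in the values of the lineage genes was not tested, and in 3 pairs the vector, the batch and the cell mixture cannot be told apart. Leaving out both vector libraries with microglia markers, in a fit of the other 8 libraries, the log2 fold changes became 1.19 for Olig1, 2.84 for Olig2, 0.68 for Nkx2-2, 1.09 for Cnp and -1.30 for Cspg4, with limma adjusted p of 0.521, 0.140, 0.526, 0.257 and 0.749, and Mbp was under the filter; that estimate rests on 1 vector library, assumed to vary like the other groups.

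**Figure D5:**
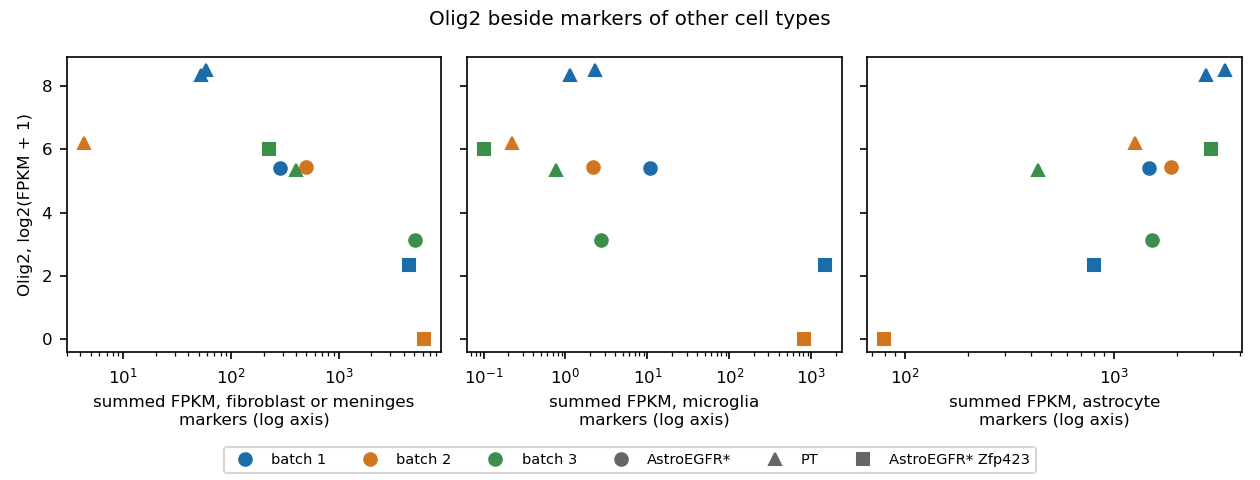
Olig2 as log2(FPKM + 1) against the summed FPKM of markers of fibroblasts or meninges, microglia and astrocytes (log horizontal axes) in the 10 libraries; colour is the astrocyte batch and the symbol the group. The 3 libraries with fibroblast markers at 4498 to 6201 FPKM in sum hold the 3 lowest values of Olig2.

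In the fit of the 6 libraries with the batch as a block, the wider lists held 0 called genes, as did all features (0%). Of 13 precursor genes tested, 12 had lower values and the median log2 fold change was -1.05; of 9 committed precursor and myelin genes, 6 were lower and the median was -0.83; and of 22 signalling genes, 18 were lower and the median was -0.82, beside 0.020 over all features, of which 48.3% were lower. In these lists 2, 3 and 6 genes had an unadjusted limma p below 0.05, as 7.38% of all features did. The largest fold changes in this fit were those of Nkx6-2 (-2.86) in the first list, Trf (2.87) and Plekhb1 (-2.48) in the second, and Shh (-2.87) and Id4 (-2.62) in the third. How far these medians moved without the libraries that stand apart differed between the lists. With batch 3, and so AstroEGFR*3, left out they were -1.08, -0.076 and -0.34. The next fit also differs from the one above in holding the PT libraries and in the genes tested. In the fit of 8 libraries without AstroEGFR*1 Zfp423 and AstroEGFR*2 Zfp423, 9 of 15 precursor genes and 10 of 15 committed genes were higher with the vector, with medians of 0.082 and 0.50, while 16 of 23 signalling genes were lower, with a median of -0.92. The 1 vector library left in it, AstroEGFR*3 Zfp423, was below its own parent in the median of each list, by the within-batch values given next. In that fit 1 precursor gene was called, and 0 of the other lists, beside 1.38% of all features. It was Vcan, at 1.96 FPKM in AstroEGFR*3 Zfp423 against 10.3 to 23.6 in AstroEGFR*, with a log2 fold change of -2.81 ± 0.29 (SE, limma adjusted p of 0.0206), and it was at 39.4 and 46.0 FPKM in the 2 vector libraries left out. The members' median log2 difference was -1.64, -1.94 and 0.76 in batches 1, 2 and 3. The medians of the 3 wider lists were negative in every batch, at -0.78, -1.26 and -0.59 in batches 1, 2 and 3 for the precursor genes, -0.47, -0.17 and -0.57 for the committed genes, and -0.47, -0.47 and -0.84 for the signalling genes. In batch 3, 3 of 13 precursor genes were at least 1 higher and 5 at least 1 lower with the vector, and of 9 committed genes 2 and 3 were.

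The astrocyte batches were compared over all 10 libraries with the group as a covariate. For 0 of 6 members did the batches differ at a limma adjusted p below 0.05, as they did for 8 of 12476 features (0.0641%), and 1 member, Cnp, had an unadjusted p below 0.05, against 20.4% of all features. For Cnp the log2 difference from batch 1 was -1.78 in batch 2 and -0.58 in batch 3 (limma p of 0.0388, adjusted p of 0.226), and for Olig1 it was -3.24 and -1.20 (limma adjusted p of 0.320). Without AstroEGFR*3 Zfp423, 2 members, Olig1 and Cnp, were called (limma adjusted p of 0.0480 and 0.0439), and 364 features were, 2.91% of those tested.

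Across the 10 libraries the regulators varied together. Pearson's r of log2(FPKM + 1) between Olig1 and Olig2 was 0.959, between Olig2 and Nkx2-2 0.936 and between Olig1 and Nkx2-2 0.909 (n = 10), as a description over libraries that share batches, parents and 2 values listed at 0. Among 12274 features, those most like Olig2 were Ptprz1 (0.978), Ppm1l (0.970) and Hk1 (0.966); those most like Olig1 were Metrn (0.985), Acot1 (0.968) and Iffo1 (0.965); and those most like Nkx2-2 were Rfxap (0.960), Ptprz1 (0.957) and Gm7694 (0.957). Cnp had r of 0.772 with Olig1 and 0.654 with Olig2 and was most like 2310044G17Rik (0.971), Fam59b (0.948) and Fam84a (0.940). Cspg4 stood apart from the regulators, with r of -0.022 with Olig1 and -0.068 with Olig2, and was most like Slc27a3 (0.933), Peg13 (0.889) and Ephb6 (0.889). Gpr17 was most like Fam89a (0.995), Omg (0.993) and Atcay (0.990), a likeness that rests on PT4, in which these 4 genes were at 12.1 to 31.8 FPKM while they were below 1 FPKM in every other library.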

How the data were processed

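The authors deposited 1 table of FPKM values, gene by library, for 23230 features named by symbol. Per the labels and their processing notes, reads were aligned to mm9 with TopHat 1.3 and FPKM were computed with Cuffnorm; the labels name a TruSeq kit and the paper a ribosomal depletion kit, and which library had which is not given in the sources used here. Groups came from the labels and astrocyte batches from the study. No count model was applied to FPKM, and relative depth was estimated from features listed at 0 in at least 2 libraries. A total of 0 columns were left out.

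Features that averaged 1 FPKM or more were compared on log2(FPKM + 1) with limma 3.58.1 in R 4.3.3 (linear model, empirical Bayes with trend). Benjamini-Hochberg adjustment covered every feature tested, at a threshold of 0.05. A fold change on this scale understates that of low genes. PT and AstroEGFR* were compared without a block, with the batch as a replicate block as an alternative. Same-batch libraries of these groups deviated together from their group means (r of 0.346 to 0.499), and the pairing comes from the shared astrocyte batch; for Zfp423 and AstroEGFR* the same-batch r was 0.241, -0.111 and -0.262. The Zfp423 comparison had the batch as a block, and the batch comparison was an F test with the group as covariate. Within-batch differences set 1 library beside another, with 1 on the log2 scale as limit. The script was tested on generated data with known changes. Python 3.11.15 with numpy 2.4.6, pandas 2.3.3, scipy 1.17.1 and matplotlib 3.10.9 were used for the other steps.

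Alternatives were a pseudocount of 0.1, no filter, median-ratio scaling, rescaling without 818 small RNA and histone features (1.05% to 54.9% of the summed FPKM), no trend, batch 3 left out, PT1 and PT4 averaged, all 10 libraries in 1 fit, and each library left out in turn. The fit without both vector libraries with microglia markers was added after the values were seen. The members, lists and markers were chosen with earlier results of these data known. All 9 members are named, with the list genes past the threshold and up to 4 others of large fold change, or, for PT4 and the signals, as examples chosen after their values were seen. Myrf was looked up as Gm98, and 1 neuron marker was not found. The values of 1 gene of the myelin list, which its counts include, are not reported here. Coordinates are GRCm38 while the files use mm9, so positions were used for names and sequence alone.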

Additional observations from a re-analysis of the deposited data

Results flagged for a closer look

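Among the 61 members and list genes checked for a library apart from the other 3 PT libraries (by Dixon's ratio of gap to range, which chance alone passes in about 1 of 20 groups), 8 were apart, 5 of them through PT4. PT4 was high for Gpr17 (12.1 FPKM), Mag (0.180 FPKM), Lhfpl3 (73.8 FPKM), Cldn11 (7.04 FPKM) and Omg (31.8 FPKM). Gpr17 and Omg passed the filter on low values through PT4 alone, and Mag was listed at 0 in the other PT libraries, so PT4 had to be high for these 3, and the count of 5 is not to be read against the share chance gives. PT3 was low for Plekhb1 (3.42 FPKM) and high for Hes1 (107 FPKM), and PT2 was low for Id1 (15.1 FPKM).

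The difference between the vector culture and its parent went opposite ways among batches; these are differences of single libraries and were not tested. On the log2 scale it was -3.50, -6.37 and 1.05 in batches 1, 2 and 3 for Olig1, -3.05, -5.46 and 2.89 for Olig2, -1.42, -1.58 and 1.02 for Cnp, and -0.068, 4.59 and -2.94 for Cspg4. For Cspg4 the difference between PT and its parent was 1.95 and 3.74 in batch 1, 0.19 in batch 2 and -2.97 in batch 3.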

How the results depend on the processing

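In PT against AstroEGFR*, 0 members were called under any setting, while features called went from 152 to 8 with batch 3 left out, 475 with the replicate block, 31 with the block and without PT4, 61 with PT1 and PT4 averaged, 62 with all 10 libraries in 1 fit, and 7 to 123 with 1 library left out. With 1 library left out, Cspg4 ranged from -0.28 (without PT4, with or without the block) to 1.72, and Cnp from -0.71 to 0.12, reversing without AstroEGFR*1 (0.058) and PT2. In the Zfp423 comparison 0 members were called under any setting, and features called went from 0 to 2 without the replicate block, 47 and 60 without AstroEGFR*2 or its vector culture, and 169 without both vector libraries with microglia markers, where Olig1 (1.19), Olig2 (2.84), Nkx2-2 (0.68), Cspg4 (-1.30) and Cnp (1.09) reversed. Cspg4 also reversed to -0.088 with a pseudocount of 0.1 and ranged with 1 library left out from -1.503 (without AstroEGFR*2 or its vector culture) to 2.26. In the batch comparison features called went from 8 to 5 without the filter and to 2 to 364 with a library left out; members called went from 0 to 2 without AstroEGFR*3 Zfp423. The causes were not tested. Scaling, pseudocount and trend changed no other call or direction of a member. FPKM at or near 0 are least certain in AstroEGFR*3 and PT3, the libraries of least estimated depth.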
